A study of Homo sapiens with 6 samples.

Results

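The genes described here are 32 genes of oxygen sensing and of the hypoxia response outside glycolysis, in C4-2 cells that carried an inducible, constitutively active YAP1. Members were chosen by their known function, with the levels of these same libraries already known, so counts over them are descriptions of these genes and not independent evidence. By symbol, 30 of the 32 were found among the 26819 genes of the deposited table: 4 subunits of the hypoxia-inducible factors (HIF), 4 oxygen-dependent hydroxylases with the ubiquitin ligase subunit VHL, 20 hypoxia target genes and the non-coding transcript MIR210HG. HIF3A was not analysed here. RORA-AS1 was not found under that symbol. Its gene is listed under a clone name, RP11-219B17.1, at 0 to 0.197 TPM.

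C4-2 is a castration-resistant human prostate cancer line. The cells carried Tet-O-YAP5SA, in which the tetracycline operator drives a YAP1 that the LATS kinases cannot phosphorylate. Messenger RNA was sequenced from 3 libraries of these cells with doxycycline (Dox, 24 hours, 0.2 mg/ml per the labels) and from 3 libraries of the same cells without it (Ctrl). Both groups carried the transgene, and there were no doxycycline-treated cells lacking it, so the effects of the drug and of YAP1 cannot be told apart. The labels do not say if replicates came from separate cultures. The p-values therefore reflect only library-to-library spread, which is possibly technical.

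Cells sense oxygen through an enzyme reaction that ends in protein degradation. Prolyl hydroxylases of the EGLN family use oxygen to hydroxylate the HIF alpha subunits, VHL binds the hydroxylated protein and directs its destruction, and HIF1AN hydroxylates an asparagine that blocks recruitment of the coactivators EP300 and CREBBP. When oxygen falls, the alpha subunit persists, pairs with ARNT and binds hypoxia response elements in genes for blood vessel growth, pH control, matrix crosslinking and mitochondrial turnover. The alpha subunits are controlled mainly as proteins, which RNA levels do not show.

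Each library held between 24960398 and 29261488 reads assigned to genes, recovered from the deposited values. Levels are in TPM, reads per unit of gene length scaled to a fixed total in each library. YAP1 had 263, 277 and 268 TPM in Dox, against 52.7, 57.9 and 59.9 TPM in Ctrl. Its log2 fold change was 2.23 ± 0.05 (SE, n = 3 each, limma adjusted p = 6.2e-08). Of the luminal prostate markers, KLK3 fell and was at 1795 ± 17.1 TPM in Dox and 3297 ± 69.6 TPM in Ctrl. KLK2 and HOXB13 also fell, KRT8 (log2 fold change 0.30, adjusted p = 0.00021) and KRT18 (0.45, adjusted p = 6.1e-06) rose, and FOLH1 did not pass (0.05, adjusted p = 0.27). The 3 basal markers summed to 1.17 to 1.76 TPM in Dox and 1.36 to 1.71 TPM in Ctrl, with KRT5 at 0 TPM in all Dox libraries and in Ctrl 3. The 4 stromal markers analysed, nearly all COL1A1, summed to 8.02 to 8.66 TPM in Dox and 6.61 to 7.26 TPM in Ctrl. The endothelial marker CDH5 was at 0.381 to 0.567 TPM in Dox and 0 to 0.0197 TPM in Ctrl, and the immune markers CD3E and CD14 summed to 0.0425 to 0.121 TPM in Dox and 0.118 to 0.189 TPM in Ctrl. The part of these differences in the results was not tested. In these bulk samples, fewer cells expressing a gene and less of its RNA per cell cannot be told apart.

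Most hypoxia target genes were lower with doxycycline, while the HIF subunit transcripts were higher and the hydroxylases were divided. Of the 30 listed members, 28 reached 1 TPM in at least 3 of the 6 libraries and were tested. Calls used a limma adjusted p under 0.05 over all 14833 tested genes. Of the 28 members, 17 fell (60.7%, against 17.8% of all tested genes). The 10 that rose (35.7%) were near the share of all tested genes (35.9%). The lower calls were 15 of 18 tested target genes, EGLN1 and EGLN2. The higher calls were the 4 HIF subunits, EGLN3, HIF1AN, VHL, NDRG1, P4HA2 and MIR210HG. All Dox libraries lay below all Ctrl libraries for 17 members (21.1% of all tested genes) and above them for 10 (40.8%). Only BNIP3L overlapped among the tested members.

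**Figure D1:**
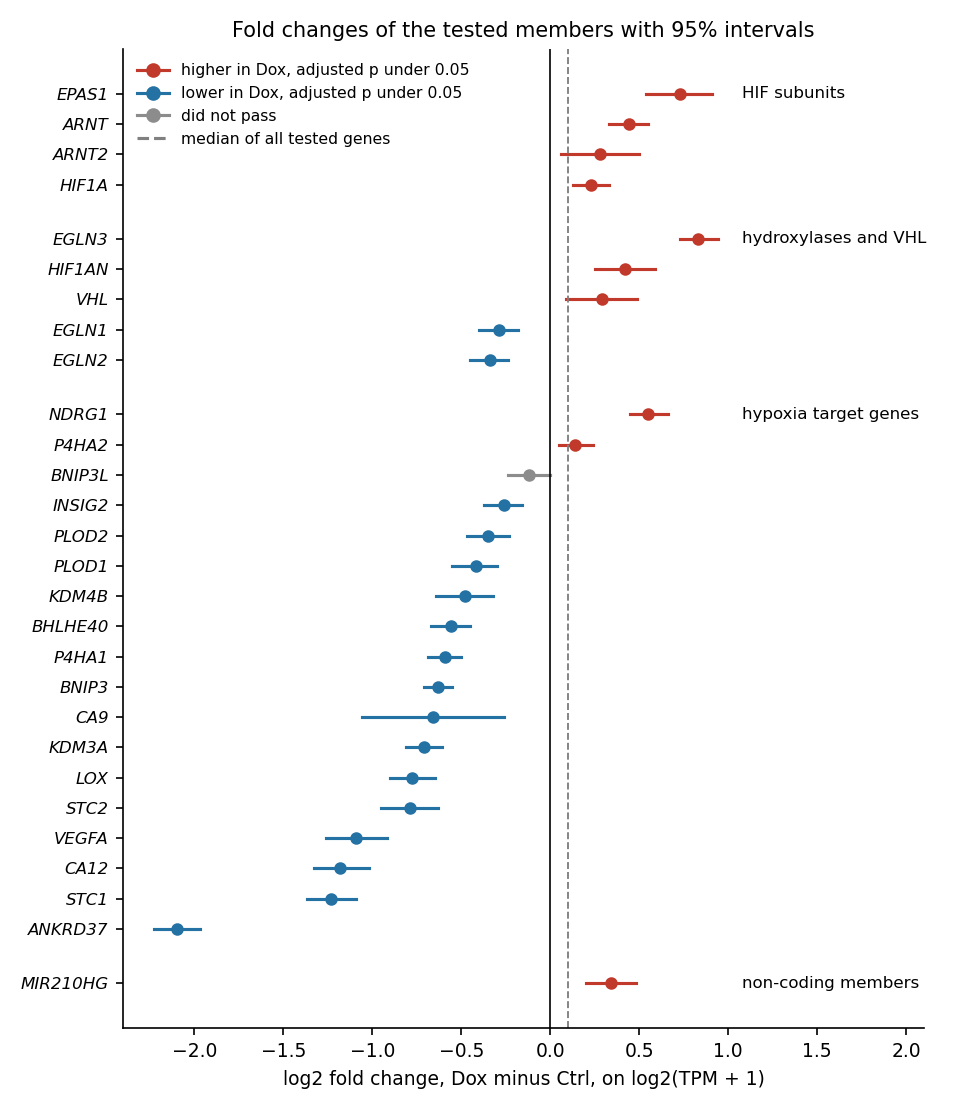
Log2 fold changes (Dox minus Ctrl, on log2(TPM + 1)) of the 28 tested members with 95% confidence intervals from limma, grouped by role, with the median of all tested genes as a dashed line. The HIF subunits lie to the right of 0 (0.23 to 0.73), and 15 of the 18 target genes lie to the left and passed the test, with ANKRD37 at -2.10.

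The median log2 fold change was -0.61 over the 18 tested target genes, 0.36 over the 4 HIF subunits and 0.29 over the 5 hydroxylase and VHL genes, against 0.10 over all tested genes. Small changes are to be read against that last value, because it depends on how libraries are scaled. Over all genes, 5319 were higher and 2640 lower as deposited, 3915 and 4010 after median-ratio rescaling, and 3536 and 4348 after quantile normalization. Of the members, median-ratio rescaling left 7 higher and 18 lower, and quantile normalization 7 higher and 17 lower. The spread between replicates was small for most members: their coefficient of variation had a median of 4.67% in Dox and 4.03% in Ctrl, and was at most 11% in Dox once CA9 (50.6%) was set aside.

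The transcripts of the HIF subunits were all higher in Dox. HIF1A, the alpha subunit found in most cells, had 98.5, 101 and 95.9 TPM in Dox, against 79.3, 86.2 and 85.8 TPM in Ctrl. The groups did not overlap, and the difference was small, 1.18-fold (log2 fold change 0.23 ± 0.04, adjusted p = 0.0028). EPAS1, which encodes the alpha subunit HIF-2alpha, had 6.92, 7.33 and 7.39 TPM in Dox, against 3.62, 4.31 and 3.95 TPM in Ctrl. It rose 1.82-fold (log2 fold change 0.73 ± 0.08, adjusted p = 0.00018) and stayed far under HIF1A in every library: the ratio of EPAS1 to HIF1A levels was 0.0703 to 0.0770 in Dox and 0.0457 to 0.05 in Ctrl.

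ARNT, the oxygen-independent partner of both alpha subunits, had 45.3, 46.7 and 42.7 TPM in Dox, against 32.1, 33.6 and 32.7 TPM in Ctrl. All Dox libraries were higher, 1.37-fold on average (log2 fold change 0.44 ± 0.05, adjusted p = 0.00014). Its paralog ARNT2 was low, at 4.11 ± 0.351 TPM in Dox and 3.20 ± 0.293 TPM in Ctrl (SD, n = 3 each), and rose by 0.28 ± 0.10 on the log2 scale (adjusted p = 0.037). That call is lost after median-ratio rescaling (adjusted p = 0.091), after quantile normalization (0.20), without the filter on low values (0.091), and on leaving out Ctrl replicate 1 (0.11), Ctrl replicate 3 (0.084), Dox replicate 2 (0.12) or Dox replicate 3 (0.085).

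Other genes share the HIF1A locus. The antisense transcript HIF1A-AS2 had 7.02, 6.57 and 7.04 TPM in Dox, against 1.67, 1.78 and 3.31 TPM in Ctrl (log2 fold change 1.31 ± 0.18, adjusted p = 0.00054). On the same strand as HIF1A, the processed transcript RP11-618G20.1 had 310, 301 and 268 TPM in Dox, against 99.4, 115 and 107 TPM in Ctrl (log2 fold change 1.44 ± 0.07, adjusted p = 2.1e-06). Both were named after their values were seen. How the authors assigned reads in shared stretches, and whether by strand, is not stated, so part of the reads of these genes is uncertain.

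The hydroxylases changed in opposite directions. EGLN3, the prolyl hydroxylase PHD3, had 40.4, 41.3 and 38.4 TPM in Dox, against 22.2, 21.6 and 22.3 TPM in Ctrl. It was 1.82-fold higher (log2 fold change 0.83 ± 0.04, adjusted p = 4e-06), with wide separation between the groups. EGLN3 is itself a known HIF target. SPTSSA, which overlaps it on the same strand, rose by less (log2 fold change 0.23 ± 0.05, adjusted p = 0.009). EGLN1 (PHD2), the main prolyl hydroxylase acting on HIF-1alpha in well-oxygenated cells, had 34.3, 37.4 and 34.3 TPM in Dox, against 43.8, 42.7 and 43.8 TPM in Ctrl. It fell by 0.29 ± 0.05 on the log2 scale (adjusted p = 0.0013), with no overlap between the groups.

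EGLN2 (PHD1) had 31.4, 33.2 and 34.1 TPM in Dox, against 42.9, 40.9 and 42.0 TPM in Ctrl. It also fell, by 0.34 ± 0.05 on the log2 scale (adjusted p = 0.00049). EGLN2 shares exons with the readthrough gene RAB4B-EGLN2, which was at 98.5 ± 3.70 TPM in Dox and 115 ± 3.20 TPM in Ctrl and was lower too (log2 fold change -0.22 ± 0.04, adjusted p = 0.0026). CTC-490E21.12, also overlapping on the same strand, was at 20.3 ± 0.808 TPM in Dox and 28 ± 3.03 TPM in Ctrl (log2 fold change -0.44 ± 0.08, adjusted p = 0.0022). The reads of these genes cannot be told apart with certainty. The level of EGLN3 relative to EGLN1 was 1.18, 1.10 and 1.12 in Dox, against 0.508, 0.507 and 0.508 in Ctrl. The summed level of the 3 prolyl hydroxylase genes overlapped between groups, at 106 to 112 TPM in Dox and 105 to 109 TPM in Ctrl.

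HIF1AN, the asparaginyl hydroxylase, had 9.42, 9.96 and 8.67 TPM in Dox, against 6.67, 7.07 and 6.48 TPM in Ctrl. It rose 1.39-fold (log2 fold change 0.42 ± 0.07, adjusted p = 0.0018). VHL had 19.4, 18.6 and 19.1 TPM in Dox, against 13.4, 17.4 and 15.5 TPM in Ctrl. The Ctrl libraries were the more scattered, and the rise of 0.29 ± 0.09 on the log2 scale (adjusted p = 0.023) is lost after median-ratio rescaling (adjusted p = 0.068), after quantile normalization (0.15), without the filter on low values (0.059), and on leaving out Ctrl replicate 3 (0.054), Dox replicate 1 (0.065) or Dox replicate 3 (0.055).

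**Figure D2:**
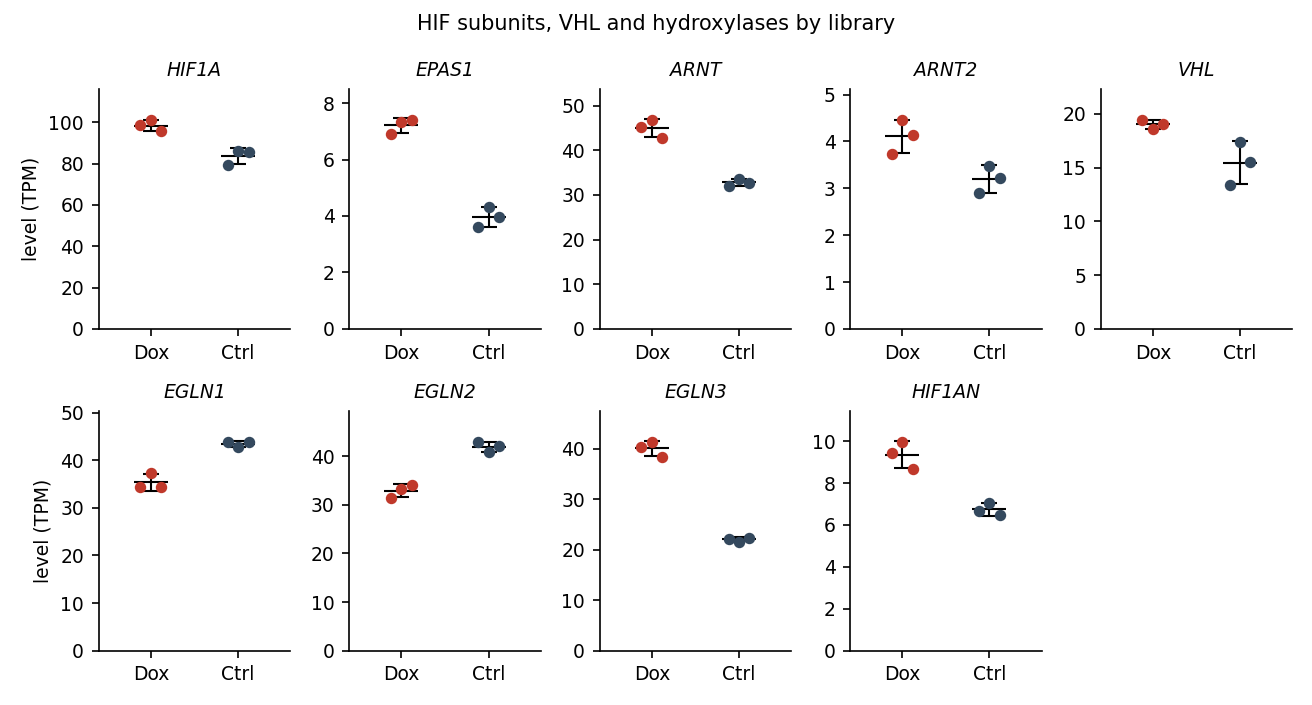
Levels in TPM of 4 HIF subunit genes, VHL and 4 hydroxylase genes, with a point for each library, Dox and Ctrl side by side, and the mean with SD (n = 3 each) in black. EGLN3 (40 TPM in Dox, 22 TPM in Ctrl) is separated upwards, and EGLN1 and EGLN2 are separated downwards.

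The target gene with the largest change was ANKRD37, an ankyrin repeat gene induced by HIF-1. It had 52.6, 47.9 and 50.7 TPM in Dox, against 232, 204 and 222 TPM in Ctrl. Every Dox library was far under every Ctrl library, and the log2 fold change of -2.10 ± 0.06 (4.35-fold lower, adjusted p = 1.3e-07) ranked 3 in size among the 2640 genes called lower. Counts were ample, with 1015 to 1151 reads per library in Dox and 4435 to 5370 in Ctrl. UFSP2, which overlaps ANKRD37 on the opposite strand, was at 37.7 ± 1.6 TPM in Dox and 38.2 ± 2.05 TPM in Ctrl (log2 fold change -0.02 ± 0.05, adjusted p = 0.76).

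HIF binds the core letters ACGTG or GCGTG of the hypoxia response element. The 250 bases before the RefSeq transcript start (GRCh38.p14) are shown for ANKRD37, the largest fall, for CA9 and KDM3A, which fell and hold a single match close to the start, and for EGLN3, a HIF target that rose. These genes were picked by hand and do not stand for the other members. HIF1A, EPAS1 and MIR210HG, not shown, rose and hold matches in the windows described below. Capitals mark ACGTG or GCGTG on either strand.
ANKRD37, chr4:185396591-185396840, plus strand: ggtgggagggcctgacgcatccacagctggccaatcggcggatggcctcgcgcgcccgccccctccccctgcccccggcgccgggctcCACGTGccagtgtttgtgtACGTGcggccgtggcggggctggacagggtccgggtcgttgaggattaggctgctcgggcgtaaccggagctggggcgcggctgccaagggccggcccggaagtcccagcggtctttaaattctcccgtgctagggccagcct
CA9, chr9:35673678-35673927, plus strand: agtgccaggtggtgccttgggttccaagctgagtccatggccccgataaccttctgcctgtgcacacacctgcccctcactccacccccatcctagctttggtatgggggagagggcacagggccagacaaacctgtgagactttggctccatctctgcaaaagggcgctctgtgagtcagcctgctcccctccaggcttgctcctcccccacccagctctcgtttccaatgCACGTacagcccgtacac
KDM3A, chr2:86441121-86441370, plus strand: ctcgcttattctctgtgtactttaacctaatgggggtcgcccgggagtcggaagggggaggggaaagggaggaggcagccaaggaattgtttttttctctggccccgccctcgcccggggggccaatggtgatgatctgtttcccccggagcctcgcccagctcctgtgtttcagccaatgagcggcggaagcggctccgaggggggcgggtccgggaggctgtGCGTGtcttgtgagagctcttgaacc
EGLN3, chr14:33951075-33951324, minus strand: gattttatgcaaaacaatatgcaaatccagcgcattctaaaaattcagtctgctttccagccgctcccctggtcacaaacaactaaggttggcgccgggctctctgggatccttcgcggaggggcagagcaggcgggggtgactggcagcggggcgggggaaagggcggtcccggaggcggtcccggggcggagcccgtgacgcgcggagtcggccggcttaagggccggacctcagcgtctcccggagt

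In ANKRD37 the matches begin 162, 161 and 143 bases before the start, the first 2 being the strands of the palindrome CACGTG, which is also an E-box. The match of CA9 begins 18 bases and that of KDM3A 26 bases before the start, and the stretch of EGLN3 holds none. In windows of 250 bases before to 50 after the start, 26 of the 32 members had at least 1 RefSeq window that was searched. Member windows on the chromosome of STC1, NDRG1 and BNIP3L were left out, so these members are not in the counts. Windows of all genes on that chromosome were kept in the share over all genes. The core was present in 15 of 15 searched members called lower and in 3 of 7 called higher (HIF1A, EPAS1 and MIR210HG). It was in 52.4% of all 27305 genes with a window. The searched members called lower were target genes, EGLN1 and EGLN2. Of the 7 called higher, P4HA2 alone was on the target list. Targets were listed for a known hypoxia response, so direction of change and choice of genes cannot be told apart here. Among the searched members, BNIP3 held the most matches, 6, and BHLHE40, KDM4B and LOX held 4 each. A CACGTG counts as 2 matches, 1 per strand, and BNIP3, BHLHE40 and KDM4B hold 1 CACGTG each, while LOX holds none. With only the first window of each member, the median GC content was 69.7% for members called lower and 66.7% for those called higher. Over all windows of all genes, the median GC content was 58.7%. Its part in the share of windows with a match was not tested. GGAATG, the core of the TEAD motif, was in the window of 1 of the 26 searched members, P4HA2, against 16.7% of all genes with a window. These are matches of letters, not measured binding.

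Among the members, the 3 tested secreted factors VEGFA, STC1 and STC2 and the carbonic anhydrases CA9 and CA12 fell. EDN1 and TGFA, secreted factors on another list described further on, rose. VEGFA, the main growth factor of blood vessels, had 17.7, 18.7 and 21.7 TPM in Dox, against 41.4, 42.7 and 42.2 TPM in Ctrl. It was 2.17-fold lower (log2 fold change -1.09 ± 0.07, adjusted p = 1.4e-05), with Dox 3 the highest of its group and still under every Ctrl library. STC1, a secreted glycoprotein of calcium and phosphate balance, had 12.1, 13.8 and 13.0 TPM in Dox, against 30.6, 31.6 and 33.1 TPM in Ctrl (log2 fold change -1.23 ± 0.06, adjusted p = 2.6e-06). Its relative STC2 had 44.1, 49.5 and 53.5 TPM in Dox, against 83.1, 88.1 and 84.4 TPM in Ctrl, a smaller fall of 0.79 ± 0.07 on the log2 scale (adjusted p = 5.2e-05).

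CA12, a carbonic anhydrase of the cell surface that controls pH outside the cell, had 19.8, 22.4 and 22.6 TPM in Dox, against 48.3, 53.7 and 48.2 TPM in Ctrl. The groups were well apart (2.32-fold lower, log2 fold change -1.18 ± 0.07, adjusted p = 5.2e-06). CA9, the related enzyme much used as a tissue marker of hypoxia, was near the detection limit, with 8, 8 and 20 reads in the Dox libraries (0.640, 0.578 and 1.36 TPM), against 30, 25 and 27 reads in the Ctrl libraries (2.00, 1.78 and 1.90 TPM). Dox 3 stood apart from the other Dox libraries. CA9 entered the test through its Ctrl libraries and Dox 3, and its log2 fold change of -0.66 ± 0.17 (adjusted p = 0.013) rests on few reads. The value depends on the pseudocount: it was -1.14 with a pseudocount of 0.1 (adjusted p = 0.018) and -1.23 by limma voom on recovered reads (adjusted p = 0.0026), and the ratio of mean TPM was 2.2-fold lower. ADM, the vasodilator peptide adrenomedullin, and ANGPTL4, an inhibitor of lipoprotein lipase, were not tested: ADM had 4 to 7 reads in Dox and 4 to 9 in Ctrl, and ANGPTL4 had 1 read in every Dox library and 1 to 4 reads in Ctrl. No difference in these 2 genes was detectable at this depth.

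With a log2 fold change of -1 or lower, 4 members were called: ANKRD37, STC1, CA12 and VEGFA. Among all tested genes, 0.822% met that limit. With a pseudocount of 0.1 or by voom, CA9 met it too. No member rose by 1 or more on the log2 scale.

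**Figure D3:**
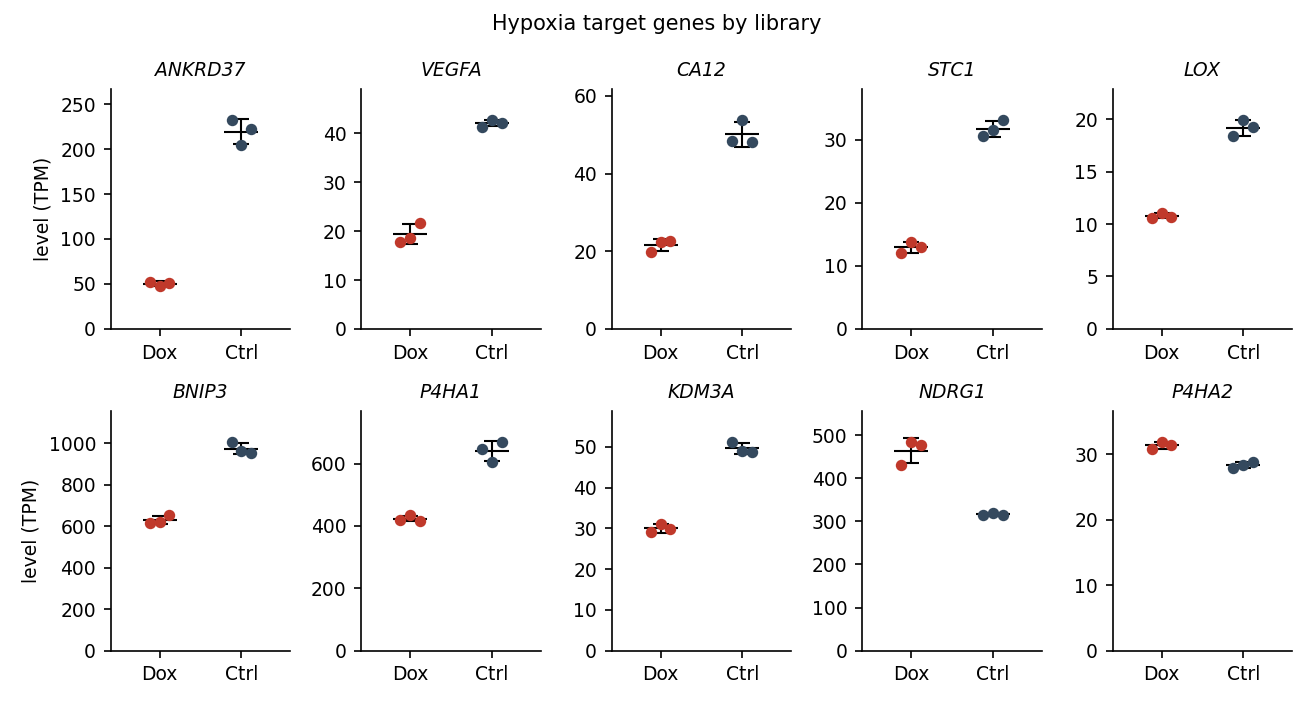
Levels in TPM of 10 hypoxia target genes, with a point for each library, Dox and Ctrl side by side, and the mean with SD (n = 3 each) in black. ANKRD37 shows the largest fold difference (50.4 TPM in Dox, 219 TPM in Ctrl), and NDRG1 and P4HA2 are the 2 genes shown that were higher in Dox.

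Of the 5 members that modify or crosslink collagen, 4 fell and P4HA2 rose. Of related genes on the list of other hypoxia genes, named after their values were seen, P4HB fell slightly (log2 fold change -0.13, adjusted p = 0.0076). PLOD3 (log2 fold change -0.01, adjusted p = 0.86) and LOXL2 (0.28, adjusted p = 0.072) did not pass, and P4HA3 was too low to test. LOX, which oxidizes lysines of collagen and elastin so that they crosslink, had 10.6, 11.1 and 10.7 TPM in Dox, against 18.4, 19.9 and 19.3 TPM in Ctrl (log2 fold change -0.78 ± 0.05, adjusted p = 1.5e-05). P4HA1, a catalytic subunit of collagen prolyl hydroxylase, was abundant and had 420, 434 and 417 TPM in Dox, against 648, 606 and 669 TPM in Ctrl. It was 1.51-fold lower (log2 fold change -0.59 ± 0.04, adjusted p = 1.5e-05), and the groups were far apart. Its paralog P4HA2 had 30.9, 31.9 and 31.4 TPM in Dox, against 27.9, 28.4 and 28.8 TPM in Ctrl.

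The rise of P4HA2 was small, 0.14 ± 0.04 on the log2 scale (adjusted p = 0.017). Median-ratio rescaling ends this call (log2 fold change 0.03, adjusted p = 0.47), as does quantile normalization (0.00, adjusted p = 0.98). It also no longer passes once Ctrl replicate 1 (adjusted p = 0.054) or Dox replicate 2 (0.063) is left out. The lysyl hydroxylases PLOD1 and PLOD2 both fell. PLOD1 was at 207 ± 16.3 TPM in Dox and 277 ± 2.19 TPM in Ctrl (log2 fold change -0.42 ± 0.05, adjusted p = 0.00044). PLOD2 was at 43.0 ± 2.00 TPM in Dox and 55.0 ± 2.47 TPM in Ctrl (log2 fold change -0.35 ± 0.05, adjusted p = 0.00082).

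Of the 2 mitophagy receptors, which mark mitochondria for removal, BNIP3 fell and BNIP3L did not pass the test. BNIP3 was the most abundant member, with 616, 620 and 653 TPM in Dox, against 1005, 961 and 954 TPM in Ctrl. It was 1.55-fold lower (log2 fold change -0.63 ± 0.03, adjusted p = 4.4e-06). BNIP3L had 250, 271 and 252 TPM in Dox, against 272, 267 and 300 TPM in Ctrl, and Dox 2 lay within the range of the Ctrl libraries. Its log2 fold change was -0.12 with a 95% interval of -0.24 to 0.00 (adjusted p = 0.094). Median-ratio rescaling gives a lower call (-0.23, adjusted p = 0.011), as does limma voom on recovered reads (-0.16, adjusted p = 0.0033).

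Among regulators of transcription, the histone demethylases KDM3A and KDM4B fell. KDM4C (log2 fold change -0.03, adjusted p = 0.76) and KDM5B (0.03, adjusted p = 0.66), demethylases on the list of other hypoxia genes that were named after their values were seen, did not pass. KDM3A had 29.1, 31.1 and 29.8 TPM in Dox, against 51.2, 49.1 and 48.7 TPM in Ctrl (log2 fold change -0.71 ± 0.04, adjusted p = 7.7e-06). KDM4B was at 32.1 ± 2.98 TPM in Dox and 45.1 ± 1.22 TPM in Ctrl (log2 fold change -0.48 ± 0.07, adjusted p = 0.00068). BHLHE40, a transcriptional repressor also known as DEC1, had 143, 156 and 160 TPM in Dox, against 229, 229 and 219 TPM in Ctrl. Every Dox library was lower (1.48-fold, log2 fold change -0.56 ± 0.05, adjusted p = 4.7e-05). INSIG2, an endoplasmic reticulum protein that holds back sterol synthesis, fell by 0.26 ± 0.05 on the log2 scale (adjusted p = 0.0021), to 74.7 ± 2.82 TPM in Dox against 90.0 ± 4.14 TPM in Ctrl.

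NDRG1, a stress-response gene induced by hypoxia and by androgens, rose while 15 target genes fell. It had 431, 484 and 478 TPM in Dox, against 315, 319 and 314 TPM in Ctrl. The 1.47-fold rise (log2 fold change 0.55 ± 0.05, adjusted p = 4e-05) was clear of the spread in both groups. It was the larger of the 2 rises among the 20 genes listed as targets. EGLN3, a HIF target grouped here with the hydroxylases, rose by more (log2 fold change 0.83). Summed over the 20 target genes, levels were 2414, 2560 and 2563 TPM in Dox, against 3467, 3369 and 3456 TPM in Ctrl. BNIP3, P4HA1 and NDRG1 are among the genes that weigh most in that sum.

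MIR210HG, the host transcript of the hypoxia microRNA miR-210, had 15.3, 16.8 and 16.5 TPM in Dox, against 12.1, 12.3 and 13.3 TPM in Ctrl. It rose 1.29-fold (log2 fold change 0.34 ± 0.06, adjusted p = 0.0023), with the groups apart by a small margin. The hairpin gene MIR210 was listed at 0 TPM in every library but Ctrl 3 (1.07 TPM), and mature microRNAs are not measured by these messenger RNA libraries.

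Other genes of the pathway were taken from 4 lists by function. Of 22 tested glycolytic hypoxia genes, 17 fell (77.3%, against 17.8% of all tested genes) and 2 rose, HK1 and PGAM1 (9.09%, against 35.9%). Their median log2 fold change was -0.45. GPI, which isomerizes glucose phosphate, was 1.68-fold lower, with 461, 487 and 534 TPM in Dox, against 804, 846 and 842 TPM in Ctrl (log2 fold change -0.75 ± 0.05, adjusted p = 1.8e-05). The aldolase ALDOA (-0.71) and the pyruvate dehydrogenase kinases PDK1 and PDK3 (both -0.67) followed it. After median-ratio rescaling the 2 rises no longer passed. Whether the target genes described above and the glycolytic genes differ in their change was not tested.

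Of 31 tested genes on the list of other hypoxia genes outside glycolysis, 15 fell (48.4%, against 17.8% of all tested genes), 6 rose (19.4%, against 35.9%) and 10 did not pass. Their median log2 fold change was -0.13. HMOX1, the heme-degrading enzyme, fell by 1.22 ± 0.10 on the log2 scale (adjusted p = 3.8e-05), DDIT4, an mTORC1 inhibitor, by 1.19, the chemokine receptor CXCR4 by 0.91 and the transcription factor MAFF by 0.78. EDN1, which encodes endothelin-1, was the extreme in the other direction, with 27.7, 24.6 and 23.8 TPM in Dox, against 0.549, 0.175 and 0.405 TPM in Ctrl (log2 fold change 4.27 ± 0.12, adjusted p = 1.4e-07). It passed the filter on low values through its Dox libraries alone. The transferrin receptor TFRC (0.82), the growth factor TGFA (0.79) and RIOK3 (0.66) also rose.

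**Figure D4:**
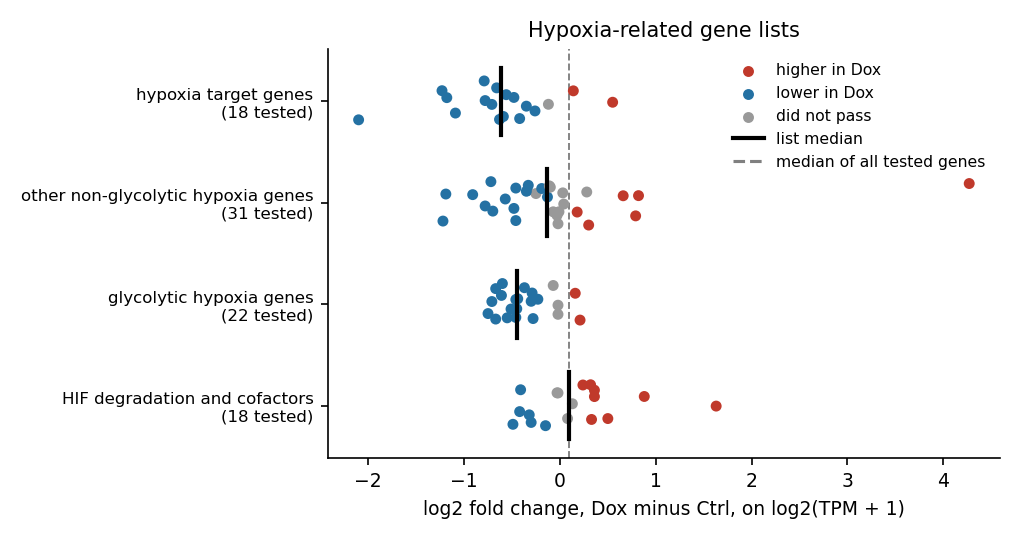
Log2 fold changes (Dox minus Ctrl, on log2(TPM + 1)) of the tested genes of 4 lists, with a point for each gene coloured by its call, the list median as a black bar and the median of all tested genes as a dashed line. The medians are -0.61 for the target genes, -0.13 for other hypoxia genes outside glycolysis, -0.45 for glycolytic genes and 0.10 for HIF degradation and cofactor genes; vertical scatter has no meaning.

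Of 18 tested genes of HIF degradation and HIF cofactors, 8 rose (44.4%, against 35.9% of all tested genes) and 6 fell (33.3%, against 17.8%). Their median log2 fold change of 0.10 was that of all tested genes. CITED2, which competes with HIF-1alpha for EP300 and CREBBP and is itself induced by hypoxia, had the largest change of the list. It had 292, 326 and 295 TPM in Dox, against 97.3, 95.6 and 99.4 TPM in Ctrl, 3.12-fold higher (log2 fold change 1.63 ± 0.05, adjusted p = 1.7e-07). ASXL1 (0.88), the coactivator NCOA1 (0.50) and ARNTL2 (0.36) also rose. SIAH2, a ubiquitin ligase that acts on EGLN3, had 78.4, 80.5 and 84.0 TPM in Dox, against 113, 115 and 115 TPM in Ctrl (log2 fold change -0.49 ± 0.04, adjusted p = 2.3e-05), and SIAH1 (-0.42), NAA10 (-0.41) and HSP90AA1 (-0.32) fell as well.

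Of the other VEGF ligands and receptors, 2 were expressed enough to test. NRP1, a co-receptor of VEGF, had 57.4, 56.8 and 51.8 TPM in Dox, against 5.39, 5.85 and 5.44 TPM in Ctrl, 9.94-fold higher (log2 fold change 3.10 ± 0.06, adjusted p = 3.2e-08). The ligand VEGFB fell by 0.37 ± 0.08 on the log2 scale (adjusted p = 0.0065). The receptor FLT1 was not tested. It had 0.596, 0.479 and 0.352 TPM in Dox, against 0.0276 TPM in Ctrl 1 and no reads in Ctrl 2 and Ctrl 3. The receptor KDR was at most 0.0772 TPM in any library.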

How the data were processed

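Stranded messenger RNA libraries (TruSeq) were grouped by sample title. Per the submitters' processing notes, FastQC 0.11.2, STAR 2.5.3a, featureCounts and edgeR were used, with hg19. Their roles, the annotation release and the strand setting are not stated. The authors deposited 1 TPM value per gene and library, scaled to the same total. Gene members and lists were chosen with earlier results of these data known. The first row of a repeated symbol was used. Named list genes are up to 4 per direction with the largest change among called genes whose groups did not overlap.

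The 14833 genes reaching 1 TPM in 3 or more libraries were tested with limma 3.58.1 (R 4.3.3), with a mean-variance trend, on the log2(TPM + 1) scale. Tests were two-sided, and p-values were adjusted over all of these genes by the Benjamini-Hochberg method, with a threshold of 0.05. This scale understates changes of low genes. Folds without "log2" are ratios of mean TPM. Whole reads were recovered as multiples of a library constant over gene length (GENCODE 29 length, or the smallest fitting length). All tested genes came out whole within 0.01 reads, and a divisor shared by all 6 counts would go unseen. Gene overlaps come from GENCODE 29 and promoter windows from RefSeq GRCh38.p14. Windows of members on the chromosome of STC1, NDRG1 and BNIP3L were left out of the member counts, but not out of the background. 3 reads on 1 kb correspond to 0.335 to 0.401 TPM. Intervals cover the spread between libraries. The scripts were tested on simulated data. Figures used matplotlib 3.10.9. Some luminal markers are not reported here.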

Additional observations from a re-analysis of the deposited data

How the results depend on the processing

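Alternatives changed the pseudocount (to 0.1), the filter (none, or a mean of 5 TPM or more), the scaling (median-ratio or quantile), the variance trend (none), the design (a replicate block) or the libraries (each left out in turn). A limma voom fit of recovered reads was added after the data were seen. Of the 28 tested member fold changes, 24 kept their direction and side of the threshold in every setting run for them, and the exceptions were ARNT2, VHL, P4HA2 and BNIP3L. No fold change of a member or of YAP1 changed sign, P4HA2 being at 0.00 under quantile normalization. Genes called lower over the whole table numbered 4010 with median-ratio scaling and 4348 with quantile scaling, and genes called higher 3536 with quantile scaling. Target genes called higher numbered 1 under either of these scalings, and 1 to 2 when a library was left out (1 without Ctrl replicate 1 or Dox replicate 2). Glycolytic genes called higher numbered 0 with median-ratio scaling, 3 with quantile scaling, and 1 to 2 when a library was left out (1 without Dox replicate 2). VEGF family genes called numbered 2 higher and 2 lower without the filter. Deviations of same-numbered libraries correlated at -0.00854, 0.0633 and 0.00346, and those of differently numbered libraries at -0.0403 to 0.0384. These values show no strong pairing by replicate number. A weak one could go unseen with so few libraries, so whether libraries were paired is not settled. With the replicate block 10 members were higher and 17 lower, the same counts as without it. Depth limits ADM, ANGPTL4 and CA9, which had at most 30 reads in any library.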
